A study of Mus musculus with 4 samples.

Results

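A set of 10 genes of the acute phase response were followed in the left ventricle of young and aged mice after ischemia and reperfusion (I/R). Of these, out of 32285 in the matrix, 6 encode secreted proteins (Lcn2, Lrg1, Serpina3n, Saa3, Hp and Cp) and 4 encode a receptor, its signalling factor or its inhibitor (Il4ra, Osmr, Stat3 and Socs3). They were matched by gene symbol and were chosen from earlier results of the same data, led by genes with a higher level after I/R at both ages. The I/R over sham values of these genes are therefore a description of the choice and are given with no test.

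The acute phase response is the change in plasma proteins that follows injury or infection. Cytokines of the interleukin-6 family, oncostatin M among them, bind receptors that carry the shared chain gp130 (Il6st), JAK kinases phosphorylate the transcription factor Stat3, and Stat3 together with C/EBP and NF-kB factors switches on the genes of secreted proteins. Socs3 is a product of the same signal and inhibits it. The liver is the best known source of these proteins, and the injured heart is known to make several of them as well.

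The study compared 4 conditions, each held by 1 single-cell 3′ library of left ventricle from male C57BL/6J mice. Young mice were 3 to 5 months old and aged mice 24 to 26 months old. The young I/R and aged I/R mice had 45 min of ischemia by surgery on the left anterior descending coronary artery and then 24 h of reperfusion. The young sham and aged sham mice are given as sham by the titles and the methods but as healthy and unaltered by the treatment labels, so whether they had surgery could not be settled. All mice were wildtype, and how many mice each library came from is not stated in the sources used here. The molecule is labelled as nuclear RNA, while the methods speak of single-cell suspensions. With 1 library per condition there is no replicate, so no test between conditions was possible, and the error of a value below is the counting error alone.

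UMIs, the counts of distinct RNA molecules, were summed over all barcodes of a library and divided by its total, which gives CPM, the level per 1000000 UMIs. The 4 libraries held 91124 to 102883 barcodes and 25836175 to 66767829 UMIs, with the fewest in young sham and the most in aged I/R. The median barcode held 244 UMIs in young sham and 675 UMIs in aged I/R. The transcript Gm42418 took 11.5% to 19.4% and the mitochondrial genes took 9.98% to 15.6% of the UMIs of a library. Between 7127 and 7657 barcodes of a library also occurred in another library, and pairs of libraries shared 2366 to 2843 barcodes. Cardiomyocyte markers were high in each library, at 95013 to 118492 CPM over 18 markers, as heart tissue would give. They were not used to tell ventricle from atrium. Because a library holds many kinds of cells, fewer cells of a type and less RNA per cell cannot be told apart.

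All 10 genes were placed on the mouse build GRCm38 (mm10) by their gene identifiers in GENCODE M21. Lcn2 (ENSMUSG00000026822) lies at chr2:32384633-32388252, Lrg1 (ENSMUSG00000037095) at chr17:56119678-56122001 and Saa3 (ENSMUSG00000040026) at chr7:46711998-46715700, all on the minus strand. Serpina3n (ENSMUSG00000021091) lies on the plus strand at chr12:104406729-104414329, Hp (ENSMUSG00000031722) on the minus strand at chr8:109575128-109579172 and Cp (ENSMUSG00000003617) on the plus strand at chr3:19957054-20009145. Among the receptors and signalling genes, Il4ra (ENSMUSG00000030748) lies on the plus strand at chr7:125552120-125579474 and Osmr (ENSMUSG00000022146) on the minus strand at chr15:6813577-6874969. Socs3 (ENSMUSG00000053113) at chr11:117966079-117970047 and Stat3 (ENSMUSG00000004040) at chr11:100885098-100939540 lie on the minus strand of the same chromosome. Cp overlaps Hps3, Stat3 overlaps Stat5a and Il4ra overlaps the antisense gene Gm44876, each on the opposite strand. Whether the counting used strand is not given in the sources used here, so reads of these pairs may not be told apart.

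Promoter windows of RefSeq on build GRCm38.p6 were read for 9 of the 10 genes, with no entry for Hp, and the 250 bases before each start were searched on both strands. The start is that of RefSeq, and for Lcn2 it lies 513 bases and for Socs3 681 bases inside the GENCODE span given above, since the span runs from the outermost transcript ends. The letters searched were TTCNNNGAA for STAT factors, TTGCNNAA for C/EBP factors and GGGNNNNNCC for NF-kB, where N is any base. The stretches of 4 genes are printed because between them they hold each of these motifs in genes at 2-fold or more after I/R at both ages, and they run 5′ to 3′ on the gene's strand, outside annotated exons, with matches in capitals.
Lcn2, chr2:32387798-32387850, minus strand: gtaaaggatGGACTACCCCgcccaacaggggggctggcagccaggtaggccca
Serpina3n, chr12:104406528-104406707, plus strand: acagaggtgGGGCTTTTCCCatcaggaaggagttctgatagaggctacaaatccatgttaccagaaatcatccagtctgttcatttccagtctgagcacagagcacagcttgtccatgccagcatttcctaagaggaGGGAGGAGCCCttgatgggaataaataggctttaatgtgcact
Saa3, chr7:46715701-46715880, minus strand: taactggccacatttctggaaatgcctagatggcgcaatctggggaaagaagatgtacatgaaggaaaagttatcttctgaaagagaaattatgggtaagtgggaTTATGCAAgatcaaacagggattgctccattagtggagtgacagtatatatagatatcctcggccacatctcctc
Socs3, chr11:117969452-117969616, minus strand: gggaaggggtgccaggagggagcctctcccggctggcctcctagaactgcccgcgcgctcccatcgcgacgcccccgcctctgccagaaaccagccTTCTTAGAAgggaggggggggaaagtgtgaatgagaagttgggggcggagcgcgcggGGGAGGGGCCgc

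The STAT letters were found in Socs3 alone, starting 154 bases before its start, and occurred in 8.1% of the 27025 genes with a window. The C/EBP letters were found in Saa3 (99 bases before the start), in Lcn2 (216 bases before the start, within an annotated exon and so not printed) and at the second start of Cp (70 bases before it), against 10.8% of all genes. The NF-kB letters were found in 6 of the 9 genes, Lcn2, Lrg1, Serpina3n, Cp, Osmr and Socs3, but also in 48.7% of all genes. A match is a run of letters and not a measured binding site.

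Lcn2 and Lrg1 had their highest level in the young I/R library. Lcn2 encodes lipocalin 2, a secreted protein that binds bacterial iron carriers. It was at 1.51 CPM in young sham (95% interval 1.07 to 2.06), 99.8 CPM in young I/R (96.7 to 103), 2.08 CPM in aged sham (1.66 to 2.57) and 72.6 CPM in aged I/R (70.6 to 74.7). Both I/R libraries were far above both sham libraries, and the intervals of the sham libraries overlapped. Lcn2 was 66.1-fold higher after I/R in young mice and 34.9-fold higher in aged mice, which placed it at rank 5 of 15465 and rank 3 of 16761 measured genes. Lrg1 encodes a leucine-rich glycoprotein that acts in transforming growth factor beta signalling of endothelial cells. It was at 24.1 CPM in young sham (22.2 to 26.0), 197 CPM in young I/R (193 to 201), 25.4 CPM in aged sham (23.9 to 26.9) and 117 CPM in aged I/R (114 to 119). The sham libraries again had overlapping intervals, and young I/R stood above aged I/R. The ratio to sham was 8.18-fold in young and 4.6-fold in aged mice.

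Serpina3n, Saa3 and Hp had their highest level in the aged I/R library. Serpina3n encodes a secreted inhibitor of serine proteases. It was at 5.26 CPM in young sham (4.42 to 6.23), 47.8 CPM in young I/R (45.7 to 49.99), 17.3 CPM in aged sham (16.0 to 18.6) and 74.9 CPM in aged I/R (72.9 to 77.1), so the intervals of the 4 libraries were apart. The ratio to sham was 9.08-fold in young and 4.34-fold in aged mice. Saa3 encodes a serum amyloid A protein made outside the liver. It was at 0.43 CPM in young sham (0.21 to 0.76, from 11 UMIs), 4.26 CPM in young I/R (3.64 to 4.95), 0.77 CPM in aged sham (0.53 to 1.09, from 32 UMIs) and 7.44 CPM in aged I/R (6.80 to 8.13). Its ratio to sham, 10.0-fold in young and 9.62-fold in aged mice, had wide intervals because of the few UMIs in the sham libraries. Hp encodes haptoglobin, the plasma protein that binds free hemoglobin. It was at 1.43 CPM in young sham (1.01 to 1.97), 7.11 CPM in young I/R (6.30 to 7.99), 5.95 CPM in aged sham (5.23 to 6.74) and 12.2 CPM in aged I/R (11.4 to 13.1). The interval of aged sham overlapped that of young I/R, and the ratio to sham was 4.96-fold in young and 2.05-fold in aged mice. Serpina3n and Saa3 belong to families of related genes, and reads that fit more than 1 of these genes could be counted wrongly. Saa1 and Saa2 held 24 and 12 UMIs over the 4 libraries.

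Cp, which encodes the copper carrier ceruloplasmin, did not share this pattern. Cp was at 112 CPM in young sham (108 to 116), 103 CPM in young I/R (99.6 to 106), 151 CPM in aged sham (148 to 155) and 245 CPM in aged I/R (242 to 249). The intervals were apart, with aged I/R highest and young I/R lowest. Against young sham, the young I/R library had a log2 ratio of -0.12 (-0.19 to -0.05), and it turned to 0.32 when the libraries were scaled to the median gene. The ratio in aged mice was 1.62-fold.

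**Figure D1:**
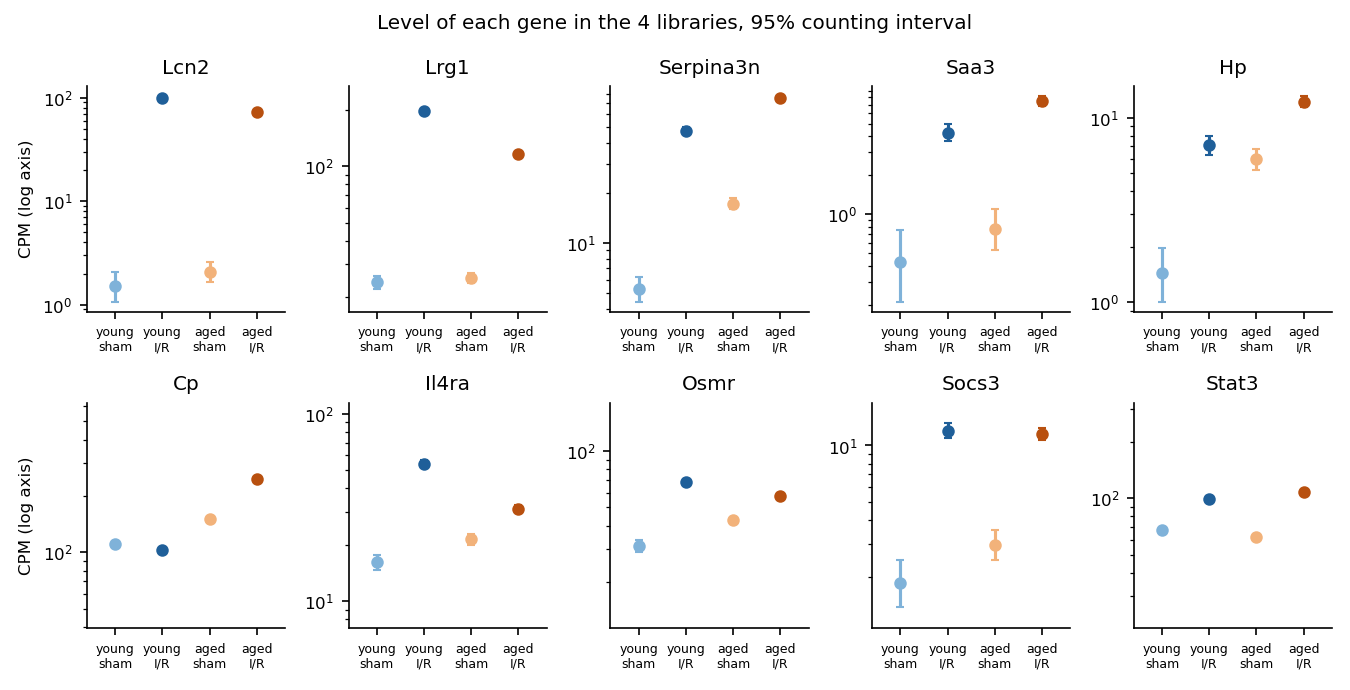
Level of each of the 10 genes in CPM, on a log axis, in each library, with sham before I/R and young before aged, and the 95% interval of counting as a bar. Points of Lcn2, Lrg1, Serpina3n, Saa3 and Socs3 in the I/R libraries stand well above those of the sham libraries, while Cp has its lowest point in young I/R.

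Among the receptors, Il4ra and Osmr had their highest level in young I/R. Il4ra encodes the chain shared by the receptors of interleukin 4 and interleukin 13. It was at 16.1 CPM in young sham (14.6 to 17.7), 53.9 CPM in young I/R (51.7 to 56.2), 21.3 CPM in aged sham (19.9 to 22.8) and 31.1 CPM in aged I/R (29.8 to 32.4). All of these intervals were apart, and the ratio to sham was 3.35-fold in young and 1.46-fold in aged mice. Osmr encodes the chain that joins gp130 to form the oncostatin M receptor. It was at 31.2 CPM in young sham (29.1 to 33.4), 68.1 CPM in young I/R (65.6 to 70.7), 42.7 CPM in aged sham (40.7 to 44.7) and 57.7 CPM in aged I/R (55.9 to 59.5). The ratio to sham was 2.18-fold in young and 1.35-fold in aged mice, with no overlap of intervals.

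Socs3 had a larger ratio after I/R than Stat3 at both ages. Socs3 was at 1.86 CPM in young sham (1.37 to 2.46), 12.0 CPM in young I/R (10.9 to 13.1), 2.95 CPM in aged sham (2.45 to 3.52) and 11.5 CPM in aged I/R (10.7 to 12.4). The intervals of both I/R libraries overlapped, as did those of both sham libraries at their edges. The ratio to sham was 6.44-fold in young and 3.91-fold in aged mice. Stat3 was at 67.3 CPM in young sham (64.2 to 70.5), 99 CPM in young I/R (95.9 to 102), 61.9 CPM in aged sham (59.5 to 64.3) and 107 CPM in aged I/R (105 to 109.8). Its ratio stayed under 2-fold at both ages, at 1.47-fold in young and 1.73-fold in aged mice.

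At 2-fold or more over sham there were 8 of the 10 genes in young mice (all but Cp and Stat3), while 3.26% of 15465 genes reached it, counting genes whose summed UMIs over the pair were 20 or more. In aged mice there were 6 of the 10 (Lcn2, Lrg1, Serpina3n, Saa3, Hp and Socs3), while 5.65% of 16761 genes did. The same 6 reached 2-fold at both ages, against 0.902% of 15418 genes measured in both comparisons. Since the genes were chosen on these comparisons, nothing is read from their counts. Just inside the 2-fold line were Osmr in young mice, with a log2 ratio of 1.13 (95% interval 1.01 to 1.24), and Hp in aged mice, with 1.04 (0.83 to 1.25). Below it, with intervals that did not reach it, was Stat3, with 0.56 (0.47 to 0.64) in young and 0.79 (0.73 to 0.86) in aged mice. Also below it in aged mice were Cp, with 0.70 (0.65 to 0.74), Il4ra, with 0.54 (0.43 to 0.66), and Osmr, with 0.43 (0.35 to 0.52). Cp in young mice was at -0.12 (-0.19 to -0.05).

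The log2 ratio to sham was larger in the young than in the aged pair for 8 of the 10 genes, while it was for 26.3% of the 15418 genes measured in both comparisons. Because these comparisons chose the genes, nothing is read from that count. The ratio was 6.05 (5.59 to 6.54) against 5.13 (4.82 to 5.45) for Lcn2, 3.03 (2.91 to 3.15) against 2.20 (2.11 to 2.30) for Lrg1 and 3.18 (2.93 to 3.44) against 2.12 (2.0 to 2.23) for Serpina3n. For Il4ra it was 1.74 (1.59 to 1.90) against 0.54 (0.43 to 0.66). The intervals of the young and aged ratios of these 4 genes were apart, as were those of Hp, Osmr and Socs3 (7 of the 10, and 13.4% of all genes). For Socs3 they were apart only from the third decimal on. For Lcn2 and Socs3 they overlapped with barcodes of at least 200 genes and with barcodes between the 10th and 90th percentile of UMIs, and for Socs3 also without barcodes that occur in more than 1 library. The ratios of Saa3, 3.32 (2.45 to 4.35) and 3.27 (2.75 to 3.83), had overlapping intervals, and Cp and Stat3 had the larger ratio in aged mice. Without replicates these differences between ages could not be tested.

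**Figure D2:**
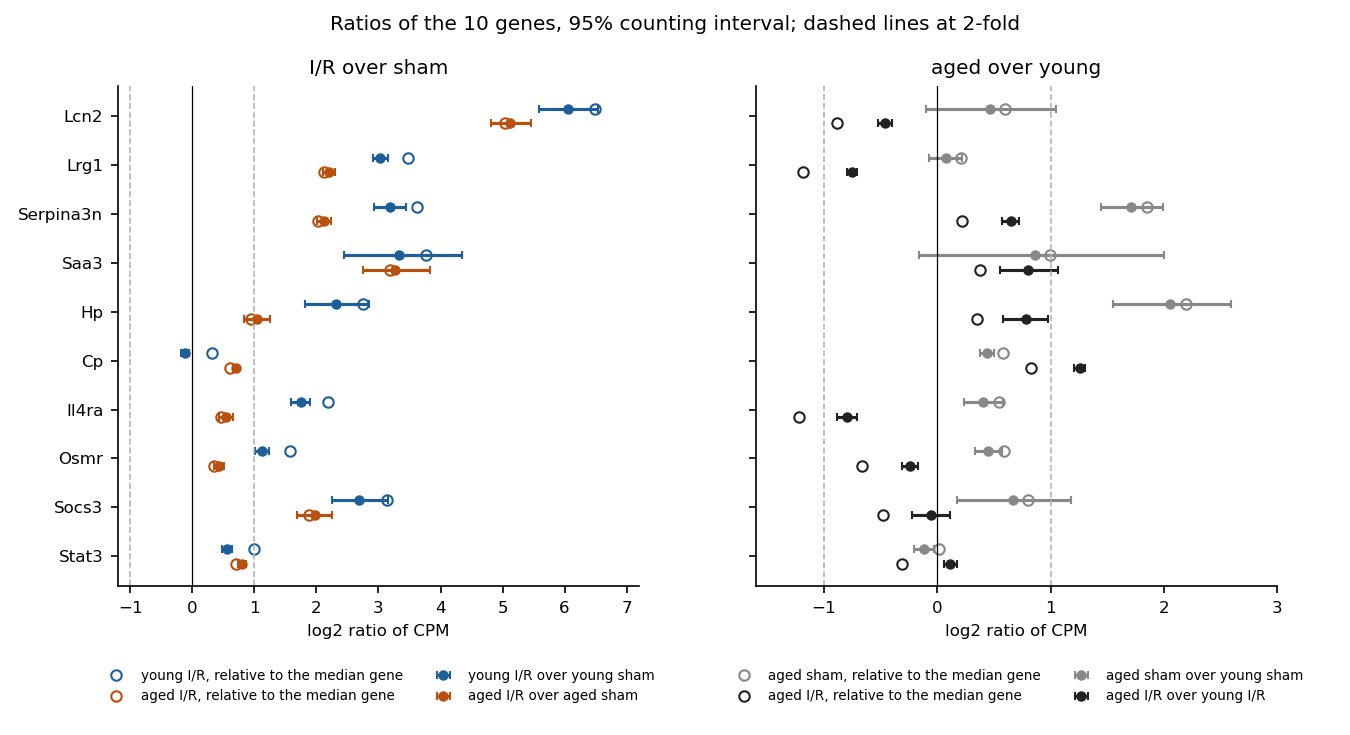
Log2 ratios of CPM for the 10 genes, I/R over sham at left and aged over young at right, with 95% counting intervals; open circles give the ratio relative to the median gene. At left 7 genes have young ratios to the right of the aged ones with intervals apart, and at right Lcn2, Lrg1, Il4ra and Osmr lie below 0 in aged I/R over young I/R.

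The libraries differed in their median gene, which bears on small ratios. Over genes with at least 100 UMIs, the median log2 ratio was -0.44 in young I/R over young sham, 0.09 in aged I/R over aged sham, -0.14 in aged sham over young sham and 0.43 in aged I/R over young I/R. Relative to that median, Stat3 was at 1.0 in young and 0.71 in aged mice, Osmr at 1.57 and 0.35, and Cp at 0.32 and 0.61. The log2 ratio of Hp in aged mice came to 0.95 on this scale, under the 2-fold line. The direction of the other I/R ratios did not turn with it.

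**Figure D3:**
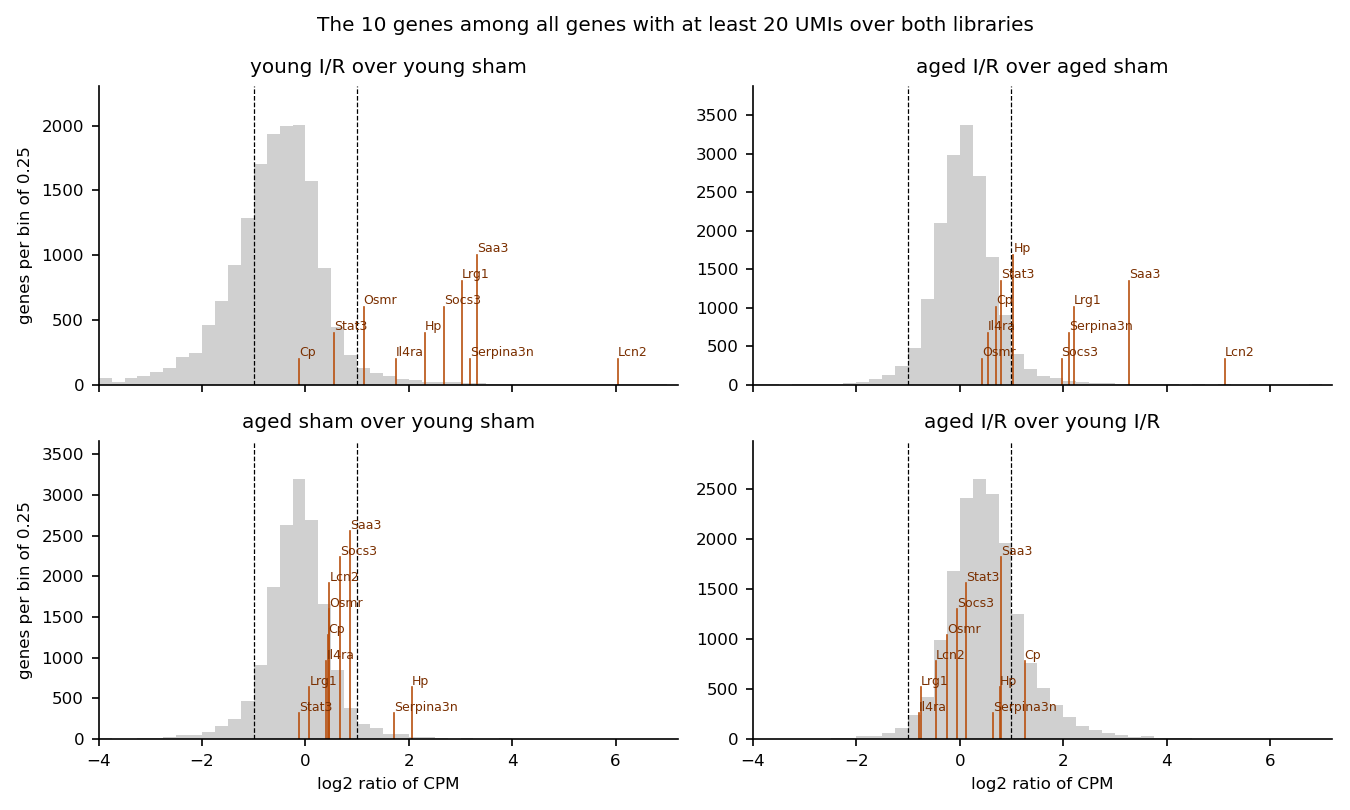
Histograms of log2 ratios of all measured genes, in bins of 0.25, for each of the 4 comparisons; the lines mark the 10 genes and the dashed lines 2-fold. Most of the 10 genes lie in the right tail of both I/R histograms, and inside the bulk of the histogram of aged I/R over young I/R.

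The comparisons between ages ask how the levels differ with age before and after injury, and they use the same 4 libraries as the I/R comparisons. In aged sham over young sham, 2 of the 10 genes were at 2-fold or more, while 3.48% of 15875 genes were. They were Hp, with a log2 ratio of 2.05 (1.55 to 2.59) from 37 and 246 UMIs, and Serpina3n, with 1.71 (1.45 to 1.99) from 136 and 714 UMIs. None of the 10 was lower by 2-fold, against 7.21% of all genes. Socs3 was at 0.67 (0.17 to 1.18), Osmr at 0.45 (0.33 to 0.57), Cp at 0.44 (0.38 to 0.50) and Il4ra at 0.41 (0.24 to 0.58). The intervals of Lcn2, 0.46 (-0.10 to 1.05), Lrg1, 0.08 (-0.07 to 0.22), and Saa3, 0.86 (-0.16 to 2.0), included 0. Stat3 was at -0.12 (-0.21 to -0.03), which became 0.02 relative to the median gene. All 10 genes lay above the median log2 ratio of all measured genes, which was -0.14, Stat3 only just so at -0.12. The genes were chosen with their levels in all 4 libraries known, so nothing is read from these counts.

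In aged I/R over young I/R, 5 of the 10 genes had a log2 ratio above 0, while 12913 of the 16491 measured genes did. At 2-fold or more was 1 of the 10 genes, Cp, with a log2 ratio of 1.26 (1.21 to 1.31), while 21.3% of 16491 genes reached that. Relative to the median gene Cp came to 0.83. Saa3 at 0.81 (0.55 to 1.07), Hp at 0.78 (0.58 to 0.98) and Serpina3n at 0.65 (0.57 to 0.73) were higher in aged I/R. Il4ra at -0.79 (-0.88 to -0.71), Lrg1 at -0.75 (-0.80 to -0.71), Lcn2 at -0.46 (-0.52 to -0.40) and Osmr at -0.24 (-0.31 to -0.17) were lower. None was lower by 2-fold, against 1.58% of all genes, although Lrg1 at -1.18 and Il4ra at -1.22 passed that line relative to the median gene. Socs3 at -0.05 (-0.22 to 0.12) had an interval that included 0, and Stat3 was at 0.12 (0.06 to 0.17), which became -0.31 relative to the median gene. Of the 10 genes, 4 (Cp, Saa3, Hp and Serpina3n) exceeded the median gene. Since the choice of the 10 genes drew on these same libraries, nothing is read from these counts either.

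Markers of some other cells moved with I/R. Neutrophils are blood cells that enter injured tissue and carry Lcn2 in their granules. Over 15 neutrophil markers the summed level was 55.2 CPM in young sham, 148 CPM in young I/R, 56.3 CPM in aged sham and 139 CPM in aged I/R. Of 11 measured markers 10 were at 2-fold or more in the young and 10 in the aged comparison, and G0s2 was the exception, at 38.7 CPM, 24.1 CPM, 27.2 CPM and 20.9 CPM in the same order. The other 14 markers summed to 16.4 CPM in young sham, 123 CPM in young I/R, 29.1 CPM in aged sham and 119 CPM in aged I/R. The defining marker Ly6g was at 0 in young sham and at 0.05 CPM in young I/R, 0.02 CPM in aged sham and 0.10 CPM in aged I/R. Barcodes with a UMI of a neutrophil marker made up 1.51% of young sham, 5.45% of young I/R, 2.27% of aged sham and 9.48% of aged I/R, or 0.441%, 4.57%, 1.17% and 8.11% without G0s2. These shares also depend on the UMIs per barcode, with medians of 244, 374, 391 and 675 in the same order. The barcodes with any of the 15 markers held 6.04% of all UMIs in young I/R and 6.34% of the UMIs of Lcn2, and in aged I/R they held 10.6% and 10.5%. Without these barcodes the log2 ratio of Lcn2 was 6.05 in young and 5.11 in aged mice, that of Lrg1 3.02 and 2.19 and that of Hp 2.23 and 1.04. RNA of such cells outside these barcodes is not removed by this step, and its part in the result was not tested.

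The 12 mesothelial markers summed to 29.0 CPM in young sham, 97.8 CPM in young I/R, 26.8 CPM in aged sham and 154 CPM in aged I/R. Prg4 alone was at 10.3 CPM, 88.0 CPM, 12.4 CPM and 137 CPM, and the other 11 markers summed to 18.7 CPM, 9.78 CPM, 14.3 CPM and 17.2 CPM in the same order. At the level of single genes, 1 of 9 measured markers was at 2-fold or more in young and 6 of 11 in aged mice. The 8 hepatocyte markers summed to 1.90 CPM to 7.01 CPM, and albumin (Alb) was at 0 in each library. Macrophage markers summed to 491 CPM in young sham, 348 CPM in young I/R, 680 CPM in aged sham and 660 CPM in aged I/R, and fibroblast markers to 1771 CPM, 1432 CPM, 2424 CPM and 1809 CPM. The part of mesothelial, macrophage and fibroblast RNA in the levels of the 10 genes was not tested.

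The barcodes with at least 200 genes, 241086 in all, were clustered without the 10 genes, to see which clusters held their UMIs. Such barcodes made up 28.4% of young sham, 55.2% of young I/R, 67.9% of aged sham and 98.8% of aged I/R. There were 13 clusters, of which 5 were named by their markers as endothelial-like, macrophage-like, mural-like and, for 2 of them, erythroid-like. The naming limits were set after the clusters were seen, and the other 8 are called by their leading genes. Each cluster's UMIs were set against those the level in the other barcodes of the same libraries would give. The cell type genes could help to form the clusters while the 10 genes could not, so the larger ratios of the former are in part set by the construction. Hbb-bt, a hemoglobin chain, was at 44.5 times the level of the other barcodes in an erythroid-like cluster, Myh11, a smooth muscle myosin, at 9.03 times in the mural-like cluster and Mrc1, a macrophage receptor, at 7.49 times in the macrophage-like cluster. Myl4, an atrial myosin chain, reached 193 times in the cluster led by Myl4 and Myl7. That cluster held 1011 barcodes of young sham, 4229 of young I/R, 3050 of aged sham and 4689 of aged I/R. Libraries labelled left ventricle thus held RNA of an atrial gene, and its origin was not tested. The second erythroid-like cluster was led by Hbb-bs at only 1.84 times, and Hbb-bt was at 0.08 times there. Its name therefore rests on the naming rule alone, with 3 markers.

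Over the 12 clusters of at least 500 barcodes, the levels of the 10 genes ran from 0.72 to 1.51 times that of the other barcodes. Osmr had the highest value, 1.51 (95% interval 1.40 to 1.63, from 642 UMIs) in the cluster led by Hmcn2 and Meg3, where it was at 56.1 CPM in young sham, 82.1 CPM in young I/R, 66.0 CPM in aged sham and 88.1 CPM in aged I/R. That cluster had 12 fibroblast markers at 1.5 times or more but 0 among its 10 leading genes, which held 1 Schwann cell marker, and it has no class name. In it Hp was at 1.39 (1.13 to 1.69) and Serpina3n at 1.17 (1.07 to 1.28). Lrg1 reached 1.29 (1.23 to 1.34) and Lcn2 1.18 (1.11 to 1.26) in a cluster led by Timm10 and Dnlz with no class name. Cp reached 1.17 (1.14 to 1.21) in the cluster led by Mhrt and Dmd, in which Lcn2, Lrg1, Serpina3n, Hp and Il4ra had their lowest values. In the erythroid-like cluster led by Hbb-bt, Lcn2 was at 1.05 (0.97 to 1.13) and Lrg1 at 1.02 (0.96 to 1.08). Red cells should lack most of these transcripts, but the barcodes of this cluster do not hold red cell RNA alone. The cardiomyocyte gene Ttn was there at 0.94 (0.93 to 0.94) times the level of the other barcodes. Ttn was at 0.94 in the mural-like, 0.91 in the endothelial-like, 0.94 in the macrophage-like and 0.95 in the second erythroid-like cluster. Its lowest value was 0.69, in the cluster led by Timm10 and Dnlz, and its highest 1.59, in that led by Mhrt and Dmd. Barcodes of each named cluster thus held cardiomyocyte RNA, and a barcode is not taken as a single cell here. Over these 12 clusters, the neutrophil markers S100a8 and S100a9 were at no more than 1.25 (1.14 to 1.37) and 1.16 (1.06 to 1.27). Both of these values were in the cluster led by Timm10 and Dnlz. Their lowest values, 0.77 and 0.79, were in the cluster led by Mhrt and Dmd. Whether the 10 genes follow these markers over the clusters was not tested. Levels near those of the erythroid-like cluster led by Hbb-bt are not read as expression by a cluster, and no gene was assigned to a cell type. Free RNA shared by the barcodes and expression in many kinds of cells were not told apart. Lcn2 was found in 3.75% of young I/R barcodes and 5.13% of aged I/R barcodes, with at most 3 and 4 UMIs in a barcode. The median barcode held 374 UMIs in young I/R and 675 UMIs in aged I/R, so these shares are not compared between the libraries.

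**Figure D4:**
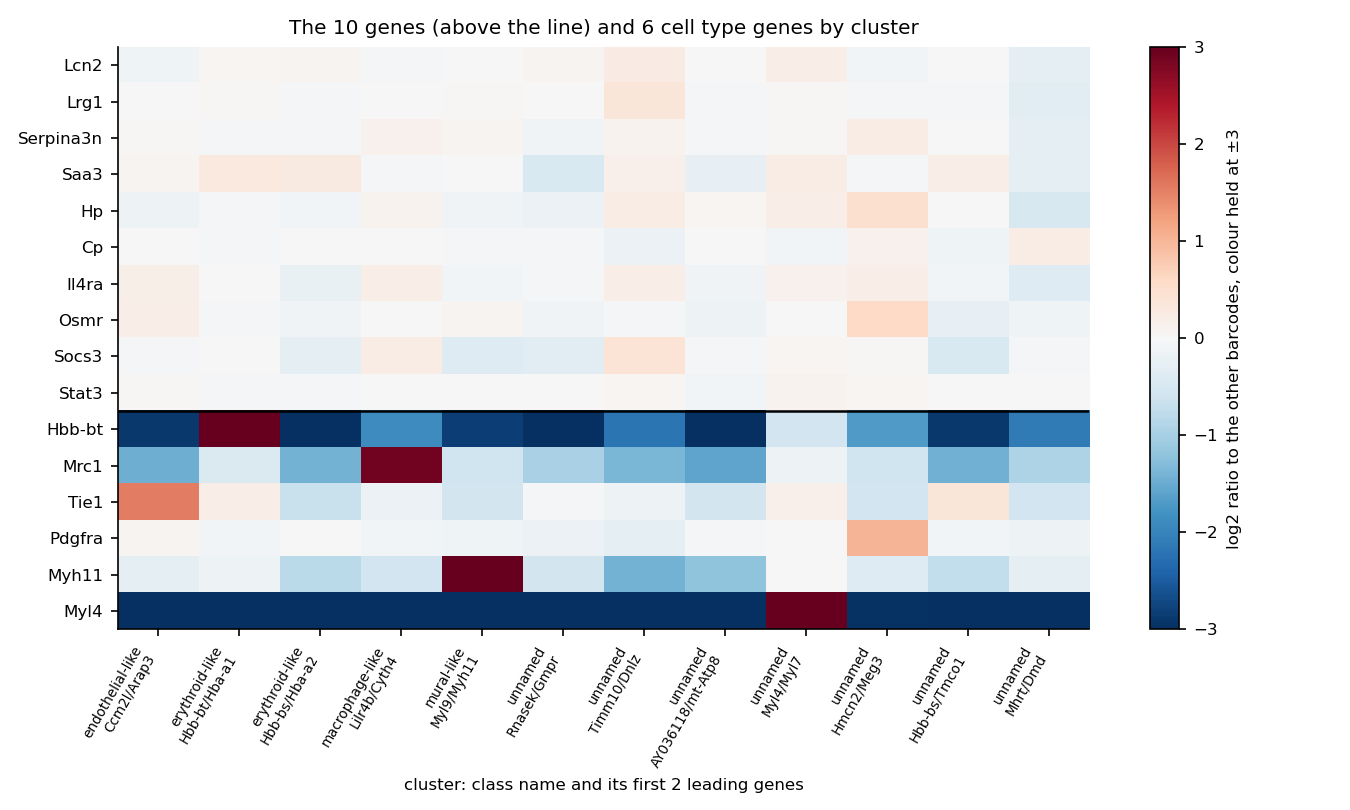
Colour gives the log2 ratio of a gene's UMIs in a cluster to the level in the other barcodes of the same libraries, for the 10 genes above the line and 6 cell type genes below it, over 12 clusters. The rows of the 10 genes are pale, with Osmr at 1.51 times in the cluster led by Hmcn2 and Meg3; Hbb-bt, Mrc1, Myh11 and Myl4, which were not left out of the clustering, are dark red in 1 cluster each.

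The other genes of the response were taken from 9 lists with 139 genes in the matrix, of which 106 were measured in the young and 113 in the aged comparison. At 2-fold or more over sham were 29 genes in young and 16 in aged mice, against 3.26% and 5.65% of all genes. Lower by 2-fold were 10 and 1, against 27% and 3.02% of all genes. The lists' joint median log2 ratio was 0.09 in young mice, where that of all genes was -0.51, and 0.15 in aged mice, where that of all genes was 0.09. These lists, like the 10 genes, were chosen with earlier results of the same data known. Their counts and medians, here and list by list below, are therefore a description, and nothing is read from their distance to all genes.

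Of the ligands, 5 of 9 measured were at 2-fold or more in young mice and 2 of 9 in aged mice. Il6, interleukin 6 itself, was at 0.23 CPM in young sham, 2.44 CPM in young I/R, 0.15 CPM in aged sham and 0.82 CPM in aged I/R. These levels rest on few UMIs, and the log2 ratios were 3.40 (2.22 to 4.88) and 2.51 (1.29 to 4.01). Il11, a gp130 ligand, was at 3.04 (1.74 to 4.71) in young and 0.96 (0.09 to 1.90) in aged mice, and Clcf1, another, at 1.92 (1.51 to 2.36) and 0.21 (-0.08 to 0.51). Il1b was at 2.15 (1.60 to 2.76) and 1.80 (1.47 to 2.15). Csf3, the growth factor of neutrophils, had 0 UMIs in young sham and 23 in young I/R. With 3 UMIs put in for the 0 its ratio was 4.99-fold, which is not a limit of counting error. Csf3 has too few UMIs for the naming rule and is an exception to it. Cardiotrophin (Ctf1) was at 0.31 (-0.21 to 0.84) and -0.33 (-0.75 to 0.09).

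Of the 14 receptors measured, 1 was at 2-fold or more in each comparison, the neutrophil receptor Csf3r, with a log2 ratio of 2.13 (1.86 to 2.40) in young and 1.79 (1.61 to 1.98) in aged mice. Il6st, the gp130 chain that works with Osmr, was at 0.09 (0.01 to 0.17) and 0.04 (-0.01 to 0.10). Its other partner Lifr was at -0.82 (-0.91 to -0.72) in young and 0.40 (0.33 to 0.47) in aged mice. Il11ra1 was at -0.25 and -0.71 and Il10rb at -0.89 and -0.43. Of the 10 JAK kinases and STAT factors 0 were at 2-fold or more, and 4 were lower by 2-fold in young mice, where 27% of all genes were. Jak1 was at -0.10 (-0.17 to -0.03) and 0.19 (0.14 to 0.24), and Stat2 at -1.13 (-1.25 to -1.0) and -0.66 (-0.74 to -0.57). Stat6, the factor downstream of Il4ra, was at -0.63 (-0.76 to -0.50) in young and 0.43 (0.33 to 0.52) in aged mice. Relative to the median gene, these young ratios are higher by 0.44. Opposite directions at the 2 ages, as in Lifr and Stat6, with intervals off 0 under both scalings, were found in 9 of 105 genes of the lists and in 21.3% of all genes measured in both comparisons.

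Apart from Socs3, the inhibitors of the pathway did not reach 2-fold in either direction in either I/R comparison, in 14 of 14 measured genes. Cish was at 0.00 (-0.08 to 0.09) in young and 0.15 (0.09 to 0.22) in aged mice, Socs2 at -0.17 and 0.11, and Pias1 at -0.66 and 0.03. The phosphatase gene Ptpn11 was at 0.16 (0.10 to 0.23) and 0.79 (0.74 to 0.83). Of the 20 factors and targets of Stat3, C/EBP and NF-kB, 6 were at 2-fold or more in young and 2 in aged mice. Cebpd, a C/EBP factor, was at 11 CPM, 33.4 CPM, 13.3 CPM and 27 CPM over the young sham and I/R and then the aged sham and I/R libraries, and Cebpb at 14 CPM, 35.3 CPM, 12.5 CPM and 17.8 CPM. Both were named after their values were seen. Myc was at 2.49 (1.93 to 3.11) and 1.3 (0.88 to 1.73), Mcl1 at 0.26 (0.20 to 0.32) and 0.24 (0.20 to 0.29), and Ccnd1 at -0.10 and -0.66. Nfkb1 was at -1.21 (-1.32 to -1.11) in young and 0.26 (0.18 to 0.33) in aged mice.

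In 18 measured genes of other acute phase proteins 7 were at 2-fold or more and 1 was lower by 2-fold in young mice, and in 19 measured genes 5 and 1 were in aged mice. The pentraxin Ptx3 was at 0.27 CPM in young sham, 6.93 CPM in young I/R, 0.34 CPM in aged sham and 1.60 CPM in aged I/R. Timp1, an inhibitor of matrix proteases, was at 3.41 CPM, 75.3 CPM, 18.5 CPM and 45.9 CPM in the same order. Spp1, osteopontin, was at 0.39 CPM, 17.5 CPM, 1.93 CPM and 16.8 CPM. The interleukin 1 receptor antagonist Il1rn was at 5.16 (3.59 to 7.46) on the log2 scale in young and 1.54 (0.83 to 2.32) in aged mice, and the iron hormone Hamp at 2.81 (2.15 to 3.55) and 1.17 (0.74 to 1.62). The zinc carrier Slc39a14 was at 0.96 (0.87 to 1.06) and 0.74 (0.66 to 0.83). C3, the central complement protein, was at 108 CPM in young sham, 49.3 CPM in young I/R, 165 CPM in aged sham and 201 CPM in aged I/R, and C4b at 32.1 CPM, 16.8 CPM, 91.5 CPM and 84.2 CPM. The complement inhibitor Serping1 was at 49.3 CPM, 30.2 CPM, 64.8 CPM and 54.3 CPM, so that all of these complement genes had their lowest level in young I/R.

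Of the copies of Serpina3 and Serpina1, 5 of 5 measured were at 2-fold or more in young and 2 of 8 in aged mice, all at low levels. Serpina3m was at 0.04 CPM, 1.49 CPM, 0.10 CPM and 1.62 CPM in the same order of libraries, and Serpina3i at 0.27 CPM, 2.09 CPM, 1.04 CPM and 2.43 CPM. Serpina3f was at 5.00 (2.45 to 10.33) on the log2 scale in young and 0.03 (-0.89 to 0.99) in aged mice. These copies resemble Serpina3n, and their UMIs may in part be its own. In the list of negative acute phase proteins, which fall in the plasma during the response, 2 of 3 measured genes were at 2-fold or more in young and 1 of 5 in aged mice, and 0 were lower by 2-fold. The retinol and thyroid hormone carrier Ttr was at 2.03 (0.87 to 3.43) and 1.12 (0.49 to 1.80) and Igfbp3 at 1.81 (1.48 to 2.15) and 0.79 (0.58 to 1.0). The apolipoprotein Apoa2 was at 0.38 (-0.41 to 1.21) in young and -0.56 (-1.2 to 0.08) in aged mice, and the retinol carrier Rbp4 at -0.06 (-0.88 to 0.78) in aged mice, with too few UMIs to be measured in young mice.

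The receptors and partners of the secreted proteins include the scavenging of hemoglobin that haptoglobin begins. Of these, 3 of 13 measured were at 2-fold or more in young and 3 of 14 in aged mice. Hmox1, which breaks down heme, was at 2.28 CPM in young sham, 28.2 CPM in young I/R, 2.76 CPM in aged sham and 7.13 CPM in aged I/R. Mmp9, a protease that forms a complex with lipocalin 2, was at 0.54 CPM, 5.67 CPM, 1.43 CPM and 5.18 CPM, and it is also one of the neutrophil markers. Among receptors linked to Lrg1, Eng was at -0.36 (-0.42 to -0.29) and -0.02 (-0.06 to 0.03), Tgfbr1 at -0.05 (-0.21 to 0.12) and -0.29 (-0.42 to -0.17) and Tgfbr2 at 0.23 (0.08 to 0.38) and 0.38 (0.28 to 0.49). Tlr4, a receptor proposed for serum amyloid A, was at 0.03 (-0.14 to 0.20) and 0.22 (0.09 to 0.34).

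**Figure D5:**
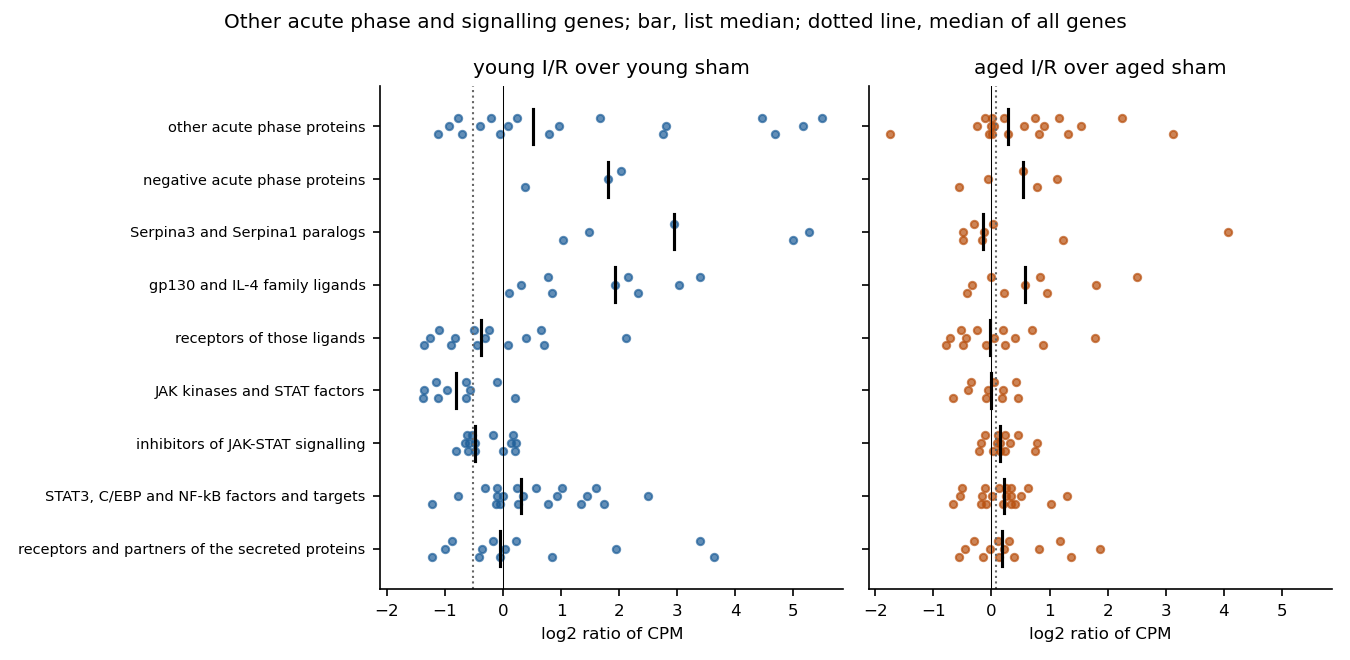
Log2 ratios of CPM of the measured genes of 9 lists, 1 point per gene, in young I/R over young sham and aged I/R over aged sham; a gene with 0 UMIs in a library stands at its bound, the bars mark list medians and the dotted line the median of all genes. Ligands and Serpina3 copies spread to the right in young mice, while JAK kinases and STAT factors have a median of -0.80 there.

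The genes whose pattern over the 4 libraries was nearest to the mean of the 6 secreted proteins were S100a9, Wfdc21, F10, Mefv and Gm19951. Nearness was the Euclidean distance of centred log2 CPM among 14487 genes with at least 100 UMIs, with only 4 points per gene, and it has no test. The choice of the 10 genes was led by a rise after I/R. That the nearest genes rise after I/R therefore follows in part from the choice. S100a9, a neutrophil marker, was at a distance of 0.20, with 3.87 CPM in young sham, 29.7 CPM in young I/R, 7.98 CPM in aged sham and 34.8 CPM in aged I/R. Wfdc21 was at a distance of 0.24 with 140 UMIs in all, and F10, coagulation factor X, at 0.31 with 501 UMIs. Of the 10 genes, Socs3 at 0.51, Serpina3n at 0.58 and Saa3 at 0.68 lay closest to that mean, and Lcn2 at 2.98 lay farthest. Lrg1 was at 1.01, Hp at 1.3 and Cp at 2.50, although each of the 6 secreted genes is part of the mean. None of the 10 genes was as near to it as S100a9. Since S100a9 was picked as the nearest of 14487 genes, this follows largely from the search and nothing is read from it. Whether the 10 genes and S100a9 share a cell source was not tested.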

How the data were processed

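Left ventricle was measured in 4 libraries, 1 per condition. The authors made UMI counts per gene and barcode with Cell Ranger 6.0.2 on mm10, per the labels; the filtered matrices were used as deposited. Whether intronic reads were counted is not given in the sources used here. UMIs of all barcodes of a library were summed and divided by the library total (CPM). Intervals (95%) are exact Poisson for CPM and exact conditional (Clopper-Pearson) for log2 ratios, and cover counting error only. A gene was measured in a comparison when its UMIs in both libraries summed to 20 or more, and 2-fold was the line for counts. No test between conditions was possible. The code of the ratios was run on simulated counts that held counting error alone, the error that the intervals assume. The simulation had no spread between mice and no shift of the median gene, so it does not bear on those limits. The members and lists were chosen with earlier results of these data known. Genes named from the other lists were the 4 measured genes with the most UMIs per list and every gene at 4-fold or more in an I/R comparison with at least 50 UMIs; exceptions are marked.

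Barcodes with at least 200 genes were clustered (2000 genes variable within libraries, scaled within libraries, 10 principal components, 20 neighbours, Leiden resolution 1 in igraph 0.11.9), in Python 3.11.15 with numpy 2.4.6, scipy 1.17.1 and scikit-learn 1.9.0. No doublet caller was run. A cluster was named by the class with most markers, at least 3, at 1.5 times or more and 50 UMIs, unless another class had more markers among its 10 leading genes; these limits were set after the clusters were seen. Alternatives were another scaling, totals without Gm42418, Malat1 and mitochondrial genes, other sets of barcodes, 100 UMIs, 1.5-fold and other clusterings. The listed genes Tf and Serpina3h were not analysed here, and some genes that the naming rule picks are not reported here.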

Additional observations from a re-analysis of the deposited data

Results flagged for a closer look

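Among the other genes of the response, 9 of 105 measured in both comparisons had ratios to sham of opposite direction at the 2 ages, with counting intervals off 0 and under both scalings, as did 21.3% of all genes. With 1 library per condition, the difference between the ages was not tested. In 6 the ratio was below 0 in young and above 0 in aged mice. By the same rule it was so in 2382 of the 15418 genes measured in both comparisons. The median log2 ratio of genes with at least 100 UMIs was itself -0.44 in young and 0.09 in aged mice. Nothing is read from these counts. C3, the central complement protein, had a log2 ratio of -1.12 in young I/R over young sham and 0.28 in aged I/R over aged sham. Lifr, the receptor chain of leukemia inhibitory factor, had -0.82 and 0.40. Stat6, the factor downstream of Il4ra, had -0.63 and 0.43, and Nfkb1, a subunit of NF-kB, had -1.21 and 0.26. Pias4, an inhibitor of STAT factors, had -0.61 and 0.31, and Scarb1, a receptor of high-density lipoprotein, had -0.99 and 0.30. In the other 3 the ratio was above 0 in young and below 0 in aged mice. Il13ra1, the chain that joins Il4ra in the receptor of interleukin 13, had 0.66 and -0.53, the adhesion receptor Icam1 had 0.24 and -0.54, and the innate immune receptor Tlr2 had 0.84 and -0.46. Pias4, Scarb1, Il13ra1, Icam1 and Tlr2 were named after their values were seen. None of the 10 main genes had opposite directions under both scalings.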

How the results depend on the processing

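Of 240 log2 ratios of the 10 genes (40 ratios under 6 alternatives) 235 kept their direction. Scaling to the median gene turned Cp in young I/R over young sham to 0.32, Stat3 in aged sham over young sham to 0.017 and Stat3 in aged I/R over young I/R to -0.31. Totals without Gm42418, Malat1 and mitochondrial genes turned the first to 0.027 and the last to -0.044. By its construction, each scaling moves all ratios of a comparison by 1 amount. The number of the 10 genes at 2-fold or more in aged I/R over young I/R went from 1 to 0 with the median gene, and with a line at 1.5-fold it was 4, as it was in aged sham over young sham. Hp alone left the 6 genes at 2-fold at both ages, with the median gene and with the totals without those genes (5 genes each). Of the other lists, with at least 100 UMIs, 18 genes of 83 measured were at 2-fold in young I/R over young sham and 6 of 79 in aged sham over young sham, where the main counts were 29 and 18. At 1.5-fold they were 28 in aged I/R over aged sham, 31 in aged sham over young sham and 30 in aged I/R over young I/R, where 2-fold gave 16, 18 and 13. Of the 10 genes, 1 (Osmr) was at 1.5 times the other barcodes in a cluster, 0 were with 25 clusters at resolution 2 and 2 with genes scaled over all libraries together. For the counts at 100 UMIs, at 1.5-fold and at 1.5 times in a cluster, the share of all genes is not given here. Nothing is read from those counts. No paired analysis was possible because each condition has 1 library.

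Depth limited Saa3, Hp, Lcn2 and Socs3 in young sham, with 11, 37, 39 and 48 UMIs, and the low ligands and Serpina3 copies. Intervals cover counting error only: the spread between mice is unknown, and no leave-one-out value could be had.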
